A study of Mus musculus with 8 samples.

Results

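The 9 long noncoding RNA genes Malat1, Neat1, Gas5, Tug1, Snhg1, Snhg12, Meg3, Kcnq1ot1 and H19 were followed through RNA sequencing of mouse brain microvascular endothelial cells, which form the inner wall of the brain's small vessels. They were taken by name, as a fixed set of well-known long noncoding RNAs, and all 9 were found among the 54532 genes of the deposited tables. The primary cultures came from wild-type mice and from mice labelled deficient for Cavβ3, the Cacnb3 product, a regulatory subunit of voltage-gated calcium channels, and the series was designed around the role of Cavβ3 in endothelial function. There were 4 libraries per genotype, which the series describes as independent biological replicates, all cultured in the same DMEM-based medium with serum, heparin and fibroblast growth factor. The mouse strain, age and sex, the deleted part of Cacnb3 and the number of mice per culture are not stated in the labels.

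Malat1 and Neat1 are RNAs that stay in the nucleus. Malat1 gathers at nuclear speckles, which store splicing factors, and Neat1 is the scaffold around which paraspeckle proteins assemble. Gas5, Snhg1 and Snhg12 are hosts of small nucleolar RNAs, guides of RNA modification that are cut from their introns, while the spliced host RNAs are often short-lived in the cytoplasm. Tug1 is a broadly expressed RNA with proposed roles in chromatin regulation. H19, Meg3 and Kcnq1ot1 are imprinted. H19 and Meg3 come from the maternal chromosome beside Igf2 and Dlk1, and Kcnq1ot1 comes from the paternal chromosome antisense to Kcnq1, where it silences neighbours such as the cell cycle inhibitor Cdkn1c. In endothelium, Malat1 and Meg3 are known from studies of vessel growth.

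The 3′ ends of Malat1 and of the long form of Neat1 are shown because they set both RNAs apart from ordinary messages: neither ends in a regular poly(A) tail. Their ends are known to be cut by RNase P and guarded by U-rich stretches that fold onto an A-rich tract. In the reference transcripts (GENCODE M21, build GRCm38, both on the minus strand) the longest stretch shared by the 2 elements was 16 bases long. It lay 25 bases before 11 marked bases of the A-rich tract in Malat1 and 32 bases before the same 11 bases in Neat1. In Malat1, unmarked A bases run directly into the marked ones, so the tract itself begins nearer to the shared stretch there. Capitals mark the shared stretch and the 11 bases, with T for U. The Malat1 element is at chr19:5795982-5796046 and ends 292 bases before the annotated transcript end, and the Neat1 element is at chr19:5824708-5824772, at the very end of the annotated long transcript. The third sequence is the end of the short form of Neat1 at chr19:5842476-5842535, where capitals mark a polyadenylation signal, AATAAA.
Malat1 3′ element: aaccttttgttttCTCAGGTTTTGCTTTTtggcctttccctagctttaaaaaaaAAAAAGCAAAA
Neat1 long form 3′ element: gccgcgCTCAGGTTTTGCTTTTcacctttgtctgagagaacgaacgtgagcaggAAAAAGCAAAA
Neat1 short form end: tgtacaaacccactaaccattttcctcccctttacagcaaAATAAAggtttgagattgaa

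The starts of the 3 small nucleolar RNA host genes are shown because host RNAs often begin with a run of pyrimidines, the mark of messages whose translation follows growth signals. They were read from RefSeq promoter windows on GRCm38, from 250 bases before to 50 bases after each annotated start, all on the plus strand. Capitals mark the longest run of C and T that touches the stretch from 10 bases before to 15 bases after the start. The Snhg1 window at chr19:8723457-8723516 and the Snhg12 window at chr4:132308648-132308707 each hold a run of 9 bases, which in Snhg1 begins only at base 5 of the transcript. Gas5 has another annotated start in the table. Its downstream start, shown here (chr1:161035136-161035195), holds a run of 6 bases, and its upstream start (chr1:161034571-161034630, not shown) a run of 3 bases, a length reached at 87.6% of promoters. A run of at least 9 bases was found at 10.7% of the 32851 promoters in the table and a run of at least 6 bases at 33.1%, so the runs are a description and not a rare feature.
Snhg1 start: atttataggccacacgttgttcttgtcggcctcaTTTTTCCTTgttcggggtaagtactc
Snhg12 start: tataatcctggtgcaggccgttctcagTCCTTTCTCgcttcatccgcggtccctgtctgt
Gas5 start: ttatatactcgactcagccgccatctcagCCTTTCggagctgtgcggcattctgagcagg

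Values are FPKM as deposited (fragments scaled to transcript length and library depth), and the depth recovered from them was 23491645 to 33813070 reads or fragments per library. Cacnb3, the gene named in the labels, stood at 3.38, 3.56, 1.12 and 0.980 FPKM in the libraries labelled wild type and at 1.70, 2.09, 2.47 and 1.77 FPKM in those labelled knockout. The groups overlapped, so the gene's level did not separate the labels. It was lower in the knockout-labelled libraries of replicates 1 and 2 but higher in those of replicates 3 and 4, which goes against the labels there. Whether these libraries carry the right labels was not tested, so the groups are called by their labels throughout, and each direction between labels below holds only as far as the labels do. All 16 endothelial markers were above the expression filter, while neuron and oligodendrocyte markers summed to at most 2.61 and 0.576 FPKM. Markers of astrocytes summed to 16.7 to 24.7 FPKM, mostly from Slc1a3, those of fibroblasts and meninges to 15.3 to 29.8 FPKM, mostly from Foxc1, and those of choroid plexus and ependyma to 43.8 to 153.9 FPKM. The highest of the latter was in the knockout-labelled replicate 2, where the water channel Aqp1 stood at 126.6 FPKM, while Ttr, the defining choroid plexus gene, was at most 0.0692 FPKM in any library. The libraries of replicates 1 and 2 stood apart from those of replicates 3 and 4 in both groups: the Y-linked Ddx3y was at 6.98 to 9.48 FPKM in the former and listed at 0 in the latter, and Xist, which coats the inactive X chromosome, was at 12.4 to 15.1 against 28.3 to 43.3 FPKM. The labels do not say what set these replicates apart.

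Levels differed by orders of magnitude between the 9 genes. Ranks here are among the 12841 genes in the tables that the GENCODE M21 long noncoding annotation lists. That annotation also holds Cct6a, a chaperonin subunit gene, at rank 7, so the class is not purely noncoding. On the FPKM scale, which is per length, Malat1 ranked highest by its mean over the 8 libraries, 519 ± 223 FPKM (SD, n = 8). Neat1 ranked 5 at 62.8 ± 20.1 FPKM, Gas5 ranked 39 at 10.6 ± 1.20, Tug1 ranked 47 at 9.59 ± 1.92, Snhg1 ranked 75 at 5.80 ± 2.09 and Snhg12 ranked 125 at 3.95 ± 1.15. Together the 9 genes made up 0.131% to 0.339% of each library's FPKM sum, and Malat1 made up 78.1% to 88.3% of their total. Malat1 exceeded Neat1, and Neat1 exceeded Gas5, without overlap over the 8 libraries. The ranges of Gas5 and Tug1 overlapped, with Gas5 higher in 5 of 8 libraries, as did those of Tug1 and Snhg1 and those of Snhg1 and Snhg12.

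The other 3 genes were not abundant in these cells. Meg3 averaged 0.225 ± 0.117 FPKM and Kcnq1ot1 0.203 ± 0.110 FPKM, and their ranges overlapped. H19 had 0 reads in 4 of 8 libraries and at most 7 reads in any. All 3 stayed under the filter for testing, 1 FPKM or more in no fewer than 4 libraries, which 11864 genes passed, so 6 of the 9 genes were tested across that table. The description as abundant therefore did not hold for the imprinted genes, and passing the filter does not make the other 6 abundant. By FPKM among all genes of a library, Malat1 ranked 22 to 88 and Neat1 402 to 1470. Snhg1 ranked 4634 to 8015 and Snhg12 6513 to 9213.

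**Figure D1:**
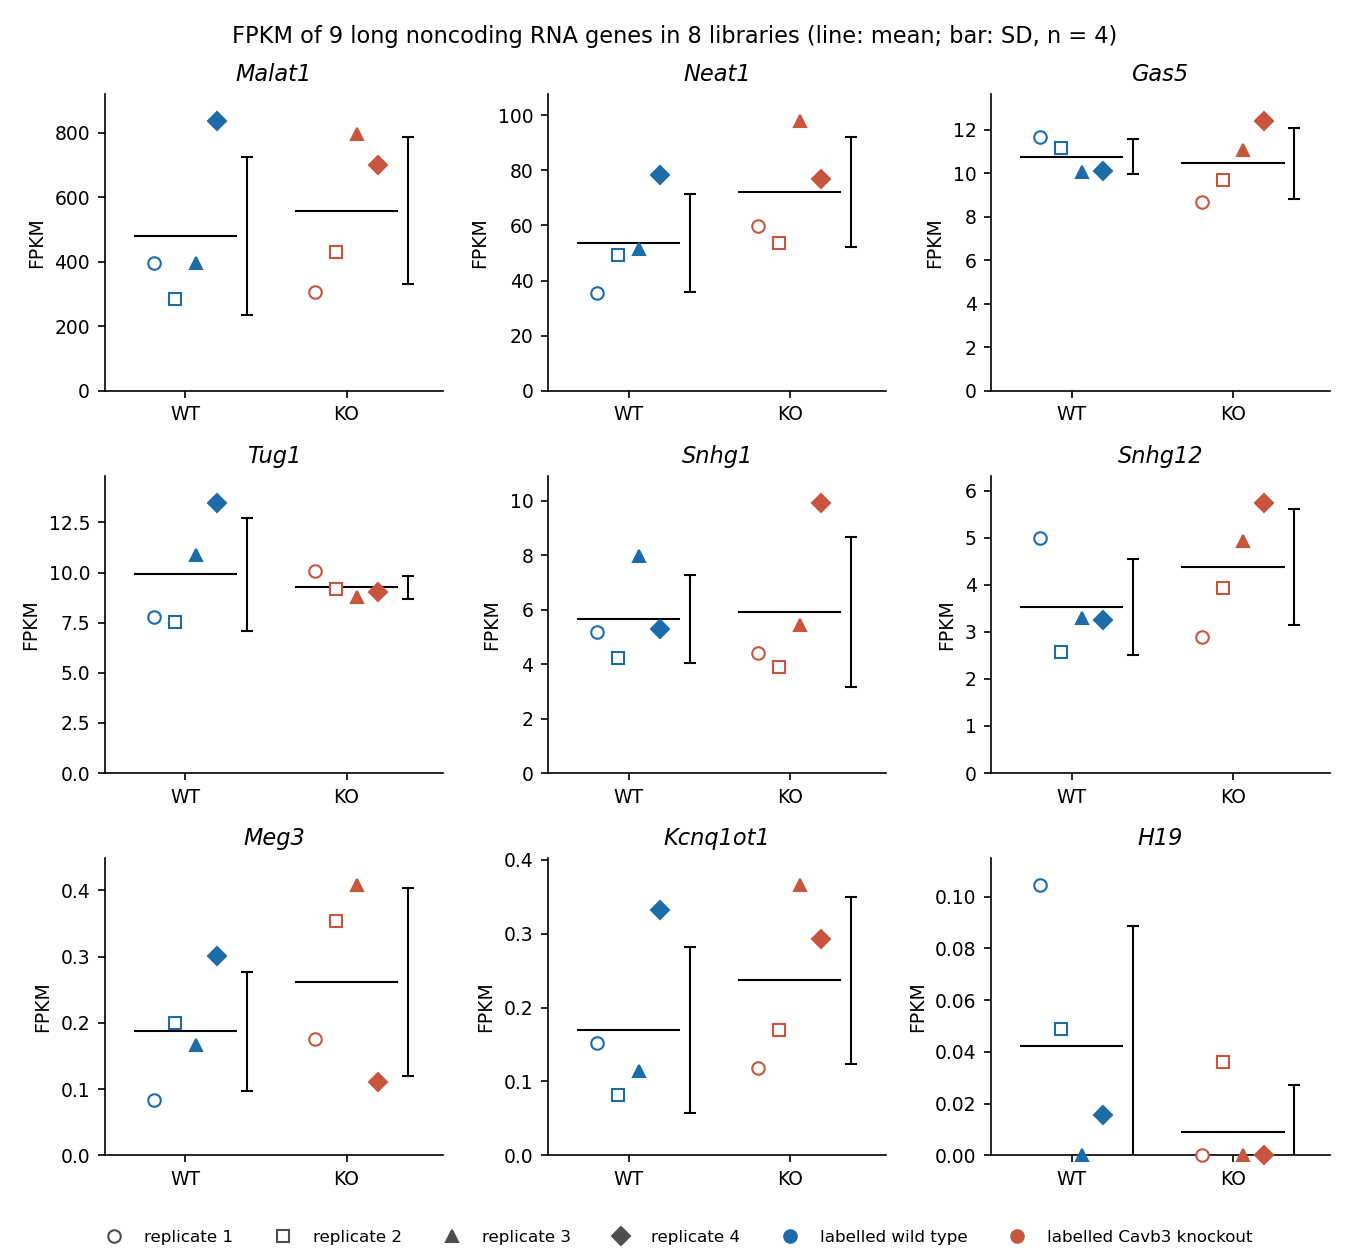
FPKM of each of the 9 genes (vertical axes, each from 0 and on its own scale) in libraries labelled wild type (WT, blue) and Cavb3 knockout (KO, red), with open symbols for replicates 1 and 2, filled symbols for replicates 3 and 4, a line at the mean and a bar for the SD (n = 4). The groups overlap for every gene, and the filled symbols of Malat1, Neat1, Snhg1 and Kcnq1ot1 lie mostly above the open ones.

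None of the 6 tested genes passed the test between the genotype labels. The comparison used limma on log2(FPKM + 1) over all 11864 genes with Benjamini-Hochberg adjustment, and it called 0% of them. At an unadjusted p under 0.05 it counted 647 genes, and limma-voom on recovered reads also called 0. For all 9 genes the FPKM values of both groups overlapped, against 4.14% of the tested genes whose groups did not overlap. Adding the replicate set as a term, limma called 0.632% of the 11864 genes, and again none of the 6. This share rests on single libraries, since 6 of the 8 fits that left out a library called 0 genes and the fit without knockout-labelled replicate 3 called 322.

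Malat1 (ENSMUSG00000092341; GENCODE M21, GRCm38 chromosome 19, 5795690 to 5802672, minus strand) was at 397, 285, 398 and 838 FPKM in the libraries labelled wild type and at 307, 430, 797 and 700 FPKM in those labelled knockout. The groups overlapped over most of their range, and the lowest and the highest value were both in libraries labelled wild type. Between labels, Malat1 differed by 0.24 ± 0.39 (SE) on the log2(FPKM + 1) scale, with a 95% interval of -0.66 to 1.15 and an adjusted p of 0.973 in limma. A library held 49626 to 151872 reads of Malat1, so counting error was small against this spread.

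Neat1 (ENSMUSG00000092274; chromosome 19, 5824708 to 5845478, minus strand), which lies beside Malat1, was at 35.6, 49.2, 51.4 and 78.4 FPKM in the libraries labelled wild type and at 59.7, 53.6, 98.0 and 76.8 FPKM in those labelled knockout. The knockout-labelled library was higher in 3 of the 4 pairs of equal replicate number, but the groups overlapped. The difference was 0.44 ± 0.26 with an interval of -0.16 to 1.03 and an adjusted p of 0.925 in limma. With the replicate set as a term the same difference had a smaller error, 0.16, and an unadjusted p of 0.0247 in limma. It did not pass adjustment over all genes (limma, adjusted p = 0.194). In that fit, 2269 of the 11864 genes had an unadjusted p under 0.05. The ratio of Neat1 to Malat1 FPKM ran from 0.0897 to 0.194. Its log2 value was 0.20 higher in the knockout-labelled libraries, a difference that did not pass an exact two-sided permutation test over 70 splits (p = 0.543, adjusted over 3 ratios 0.9; n = 4 per group). The short and the long form of Neat1 share their 5′ part and one gene-level value, so the forms were not separated.

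The small nucleolar RNA hosts did not pass the test between labels either. Gas5 (ENSMUSG00000053332; chromosome 1, 161034422 to 161038539, plus strand) was the steadiest of the 9 genes, at 11.7, 11.2, 10.1 and 10.1 FPKM in the wild-type-labelled libraries and 8.67, 9.70, 11.1 and 12.4 FPKM in the knockout-labelled ones. Its coefficient of variation over the 8 libraries was 11.3%, against 43.0% for Malat1. The difference between labels was -0.04 ± 0.11 with an interval of -0.30 to 0.21 (limma, adjusted p = 0.987).

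Snhg1 (ENSMUSG00000108414; chromosome 19, 8723475 to 8726443, plus strand) was at 5.20, 4.23, 7.98 and 5.30 FPKM in the wild-type-labelled libraries and at 4.41, 3.88, 5.44 and 9.94 FPKM in the knockout-labelled ones. The knockout-labelled libraries held both the lowest and the highest value. Its difference was 0.01 ± 0.27 (limma, adjusted p = 0.999). Snhg12 (ENSMUSG00000086290; chromosome 4, 132308623 to 132311024, plus strand) was at 4.98, 2.57, 3.29 and 3.26 FPKM against 2.88, 3.94, 4.94 and 5.74 FPKM. The difference of Snhg12 was 0.24 ± 0.21 with an interval of -0.24 to 0.72 (limma, adjusted p = 0.931).

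The host genes' FPKM values describe all annotated exons together. Gas5 has 25 annotated transcripts in GENCODE M21, 20 of them with a retained intron, and Snhg1 has 18, of which 14 retain an intron. The exon length that fits the deposited FPKM, 3760 bases for Gas5 and 2969 bases for Snhg1, is the union of these exons, while the median transcript is 629 and 602.5 bases long. FPKM per union length is therefore lower than it would be per spliced transcript, for Snhg1 and Gas5 as for Snhg12, whose union is 2402 bases and whose median transcript is 915.5 bases.

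No small nucleolar RNA was seen from these hosts as a gene of its own. The 23 snoRNA genes that lie wholly within annotated exons of the hosts, 10 in Gas5, 8 in Snhg1 and 5 in Snhg12, were listed at 0 in every library. The same held for all 132 snoRNA genes that lie inside an exon of a longer gene anywhere in the tables, whereas 379 of the other 1375 snoRNA genes, 27.6%, were above 0 in some library. The microRNA genes inside H19 and Meg3 exons, Mir675, Mir770 and Mir1906-1, were likewise listed at 0. A value of 0 for a gene nested in another gene's exon says nothing here about the small RNA itself, since it followed the annotation's nesting across the whole table.

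Tug1 (ENSMUSG00000056579; chromosome 11, 3639785 to 3649673, minus strand) was at 7.76, 7.51, 10.9 and 13.5 FPKM in the wild-type-labelled libraries and at 10.1, 9.17, 8.77 and 9.03 FPKM in the knockout-labelled ones. The wild-type-labelled libraries held both the lowest and the highest values, and the knockout-labelled ones lay between them. The difference between labels was -0.05 ± 0.17 (limma, adjusted p = 0.989). Tug1 shares 483 exon bases, 4.96% of its exon length, with the antisense gene Morc2a, which was at 15.4 to 18.3 FPKM. The labels do not say whether counting used strand, so reads from these bases cannot be told apart.

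**Figure D2:**
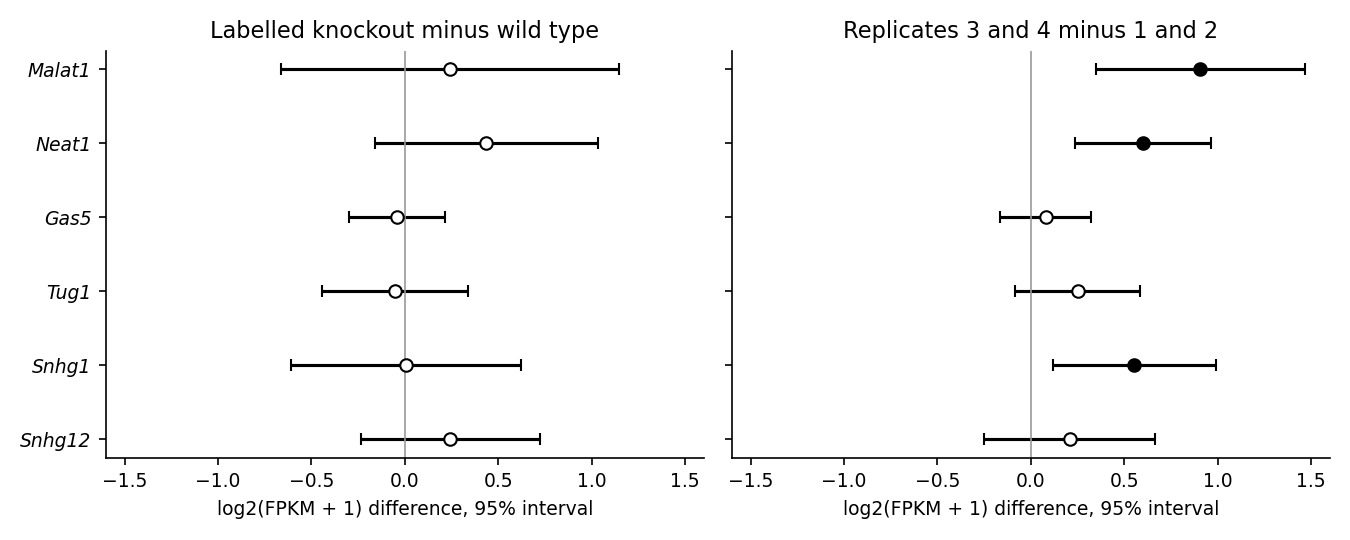
Differences in log2(FPKM + 1) from limma with 95% intervals for the 6 tested genes, between genotype labels (left) and between replicate sets (right). Filled points passed an adjusted p of 0.05 over 11864 genes: none on the left, and Malat1, Neat1 and Snhg1 on the right.

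The differences that passed the test lay between the replicate sets. Malat1, Neat1 and Snhg1 were higher in replicates 3 and 4 than in replicates 1 and 2, with genotype as a term, while Gas5, Tug1 and Snhg12 did not pass. That is 3 of 6 genes, all in the higher direction, where limma called 45.7% of all 11864 genes, 19.8% in the higher and 25.8% in the lower direction. A count of 3 among 6 is thus near the background for calls in either direction. The split was known from earlier results on these data and is not a group of the study's design.

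Malat1 averaged 683 ± 199 FPKM in replicates 3 and 4 and 355 ± 69.97 FPKM in replicates 1 and 2 (SD, n = 4 each), a difference of 0.91 ± 0.24 (SE) on the log2(FPKM + 1) scale (limma, adjusted p = 0.0182). The sets overlapped, because the third wild-type-labelled library, at 398 FPKM, lay within the range of replicates 1 and 2. Neat1 averaged 76.2 ± 19.1 against 49.5 ± 10.2 FPKM, a difference of 0.60 ± 0.16 (limma, adjusted p = 0.0170), and the third wild-type-labelled library again lay within the lower range. Snhg1 averaged 7.16 ± 2.22 against 4.43 ± 0.555 FPKM, a difference of 0.55 ± 0.19 (limma, adjusted p = 0.0435). Snhg1 was the only one of the 9 genes whose sets did not overlap, a pattern held by 39.7% of the tested genes. The gap was within counting error. It lay between wild-type-labelled replicate 1, at 5.20 FPKM (420 reads), and wild-type-labelled replicate 4, at 5.30 FPKM (408 reads).

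All 3 calls were lost when no expression filter was used (limma, adjusted p = 0.0577 for Malat1, 0.0561 for Neat1 and 0.113 for Snhg1). They also rested on single libraries to different degrees. The call of Snhg1 was lost without wild-type-labelled replicate 2 or 3 or without knockout-labelled replicate 1, 2 or 4, where its difference ran from 0.37 to 0.55. The call of Malat1 was lost without wild-type-labelled replicate 2 or knockout-labelled replicate 1 or 4, with differences of 0.78 to 0.92. The call of Neat1 was lost without knockout-labelled replicate 2, at 0.57. Snhg12 was called only when wild-type-labelled replicate 1 was left out, with a difference of 0.42 instead of 0.21.

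Long noncoding RNA genes as a class were also more often higher than lower in replicates 3 and 4. Of 602 tested genes in the long noncoding annotation, 37.5% passed in the higher and 10.1% in the lower direction. Over all tested genes, the shares were 19.8% and 25.8%. The median difference of the 602 was 0.25, against -0.04 over all tested genes. Between genotype labels, 0 of the 602 passed in limma. In a list of well-known noncoding RNAs, 6 of 10 further tested genes passed in the higher and 2 in the lower direction. Rn7sk, which holds the elongation factor P-TEFb inactive, ran from 27.1 to 47.7 FPKM in replicates 1 and 2 but from 88.9 to 130.8 FPKM in replicates 3 and 4 (limma difference 1.47, adjusted p = 0.00124), and Xist differed by 1.37 (limma, adjusted p = 6.1e-04). Mir155hg, the precursor of an inflammatory microRNA, differed by 1.46 (limma, adjusted p = 8.9e-04) and Terc, the RNA template of telomerase, by 0.84 (limma, adjusted p = 0.00831). The lower ones were Bvht, an RNA of cardiac lineage commitment, and 2900097C17Rik.

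**Figure D3:**
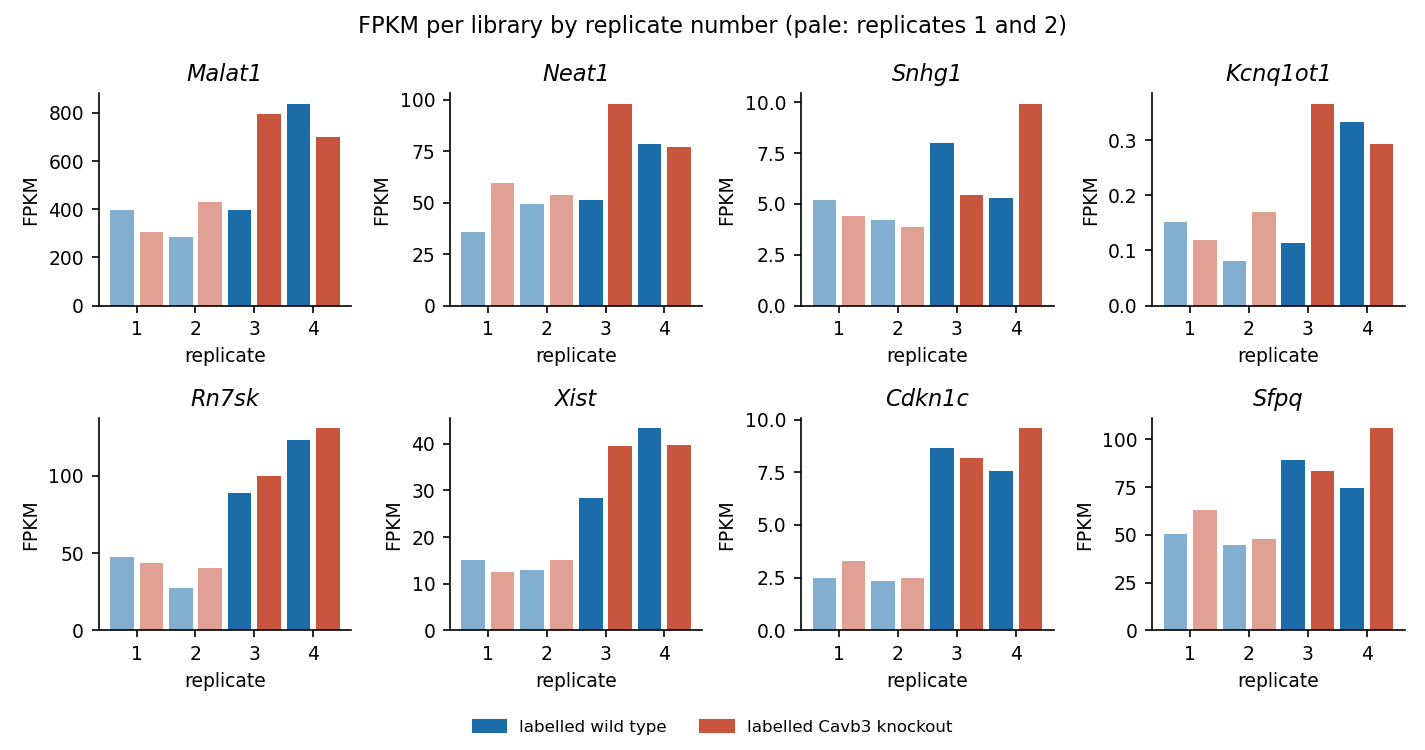
FPKM per library (vertical axes from 0) by replicate number for 4 of the 9 genes (upper row) and for Rn7sk, Xist, Cdkn1c and Sfpq (lower row), blue for libraries labelled wild type and red for those labelled Cavb3 knockout, with replicates 1 and 2 in pale colours. The 4 lower genes separate the replicate sets without overlap, whereas the third wild-type-labelled library of Malat1, Neat1 and Kcnq1ot1 stays at the level of the pale bars.

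Among 24 paraspeckle proteins, the partners of Neat1, 12 passed in the higher and 2 in the lower direction between replicate sets. Over all tested genes, 19.8% passed in the higher and 25.8% in the lower direction. The median difference of the 24 was 0.19, against -0.04 over all genes. Sfpq, an essential paraspeckle protein and splicing factor, ran from 44.5 to 62.8 FPKM in replicates 1 and 2 but from 74.4 to 105.8 FPKM in replicates 3 and 4 (difference 0.77; limma, adjusted p = 0.00187). Hnrnph1 and Hnrnph3, splicing regulators, differed by 0.70 and 0.63, and Rbmx, an RNA-binding protein of the X chromosome, by 0.49. Nono, another core paraspeckle protein, was lower, at 42.0 to 45.1 against 45.5 to 50.2 FPKM (difference -0.16; limma, adjusted p = 0.0264), and Dazap1 was the other lower one. Of 17 nuclear speckle proteins, among which Malat1 resides, 7 passed in the higher and 0 in the lower direction. They included the splicing factors Srsf7, with a difference of 1.05, and Srsf2, with 0.69. Between genotype labels none of these paraspeckle and speckle genes passed in limma, with medians of 0.05 and 0.09 against -0.02 over all genes.

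Other lists around the host genes held calls in both directions between replicate sets. Over all 11864 tested genes, 19.8% passed in the higher and 25.8% in the lower direction, and the counts below stand beside these shares. Of 9 further tested small nucleolar RNA hosts, Snhg8 and Zfas1 passed in the higher direction between replicate sets, with differences of 0.83 and 0.37, and Snhg17 and Snhg6 in the lower, with -0.49 and -0.22. Snhg5, Snhg10, Snhg15, Snhg20 and Epb41l4aos did not pass, and 6 further hosts in the tables were under the filter. Of 10 core proteins that bind small nucleolar RNAs, 5 passed in the higher direction, among them Nop56 (0.44), Nop58 (0.32), Nop10 (0.46) and the assembly factor Naf1 (0.54), and Nhp2 passed in the lower (-0.26). Of 14 factors of nonsense-mediated decay, the pathway that degrades many spliced host RNAs, 6 passed in the higher direction, led by Smg6 (0.60) and Smg1 (0.57), and Upf3a passed in the lower (-0.35). Of 19 messages with a pyrimidine run at the start, other than ribosomal proteins, 3 passed in each direction, with Nap1l1 (-0.33) and Tpt1 (0.29) changing most. None of these lists held a gene that passed between genotype labels.

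Markers of cell types and state also moved with the replicate sets. As background for that comparison, limma called 19.8% of all tested genes higher and 25.8% lower. Of 16 endothelial markers, 2 passed in the higher and 9 in the lower direction, and their summed level was 2494.8 to 3240.4 FPKM in replicates 1 and 2 and 2147.6 to 2605.1 FPKM in replicates 3 and 4. The summed level of 8 microglia and macrophage markers was 3.36 to 3.89 against 5.37 to 9.09 FPKM, and that of 12 pericyte and smooth muscle markers was 10.9 to 31.5 against 4.94 to 8.10 FPKM. Between genotype labels, all 16 endothelial markers had differences below 0, with a median of -0.26 against -0.02 over all genes. None passed in limma, but 2 did in the lower direction with the replicate set as a term, as did 0.371% of all genes. In replicates 1 and 2 their sums were 2566.5 and 2494.8 FPKM in knockout-labelled against 3163.5 and 3240.4 FPKM in wild-type-labelled libraries. In replicates 3 and 4 they were 2186.8 and 2147.6 against 2605.1 and 2458.2 FPKM. The part of these in the differences of Malat1, Neat1 and Snhg1, or in the label comparisons, was not tested. In bulk RNA, fewer cells of a type and less RNA per cell cannot be told apart.

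Within the replicate sets, Tug1 and Gas5 differed between the labels in opposite directions. In replicates 1 and 2, Tug1 was at 7.76 and 7.51 FPKM in the wild-type-labelled and at 10.1 and 9.17 FPKM in the knockout-labelled libraries. In replicates 3 and 4, it was at 10.9 and 13.5 against 8.77 and 9.03 FPKM. Knockout-labelled libraries were thus higher without overlap in one set and lower without overlap in the other. Such a reversal without overlap was seen for 2 of the 6 genes, Tug1 and Gas5, and for 4.3% of the 11864 tested genes, and Tug1 and Gas5 were singled out after their values were seen. The interaction was -0.71 ± 0.16 (SE) with an interval of -1.07 to -0.34 and an unadjusted p of 0.00255, which did not pass over 11864 genes (limma, adjusted p = 0.394).

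Gas5 had the opposite order, 11.7 and 11.2 against 8.67 and 9.70 FPKM in replicates 1 and 2 and 10.1 and 10.1 against 11.1 and 12.4 FPKM in replicates 3 and 4. Its interaction was 0.49 ± 0.13 with an unadjusted p of 0.00635 (limma, adjusted p = 0.468). The interaction was called for 0.00843% of the 11864 genes, and for 0 of the 6. Cacnb3 itself also had opposite orders in the sets, as its values above show, so a reversal between sets cannot be told apart from labels that do not hold in one of them.

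**Figure D4:**
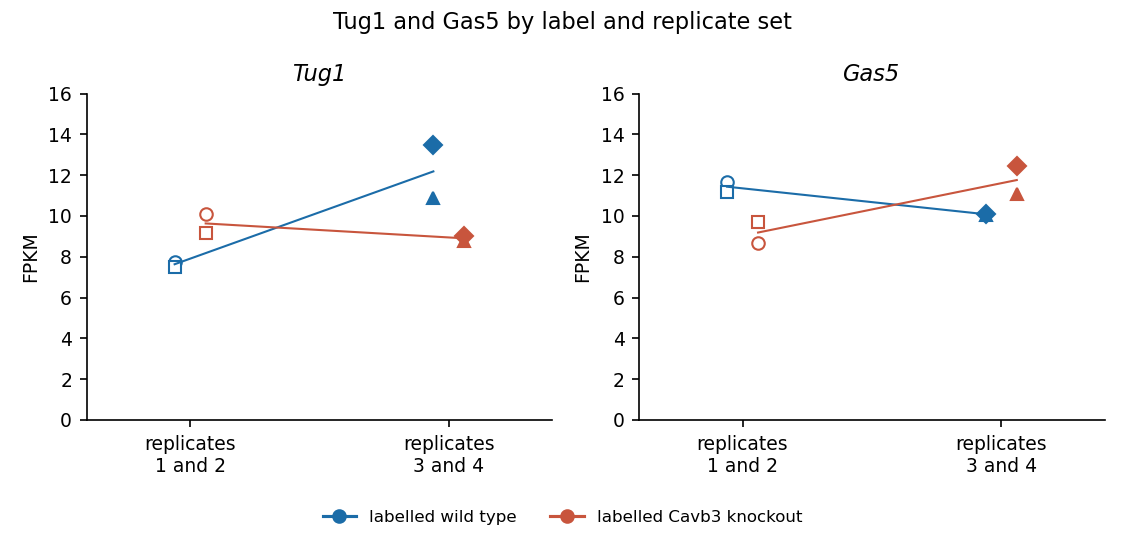
FPKM of Tug1 (left) and Gas5 (right) by replicate set, with points for single libraries and lines joining the means of libraries labelled wild type (blue) and Cavb3 knockout (red). The lines cross for both genes, since in each set the labels do not overlap and their order is turned around between sets.

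The imprinted genes were low, and H19 was near the limit of detection. Meg3 (ENSMUSG00000021268; chromosome 12, 109541001 to 109571726, plus strand) was at 0.0832, 0.199, 0.167 and 0.30 FPKM in the wild-type-labelled libraries and at 0.175, 0.353, 0.408 and 0.111 FPKM in the knockout-labelled ones. These values rest on 41 to 216 reads per library. In a test on recovered reads for genes with at least 10 reads in 4 libraries, added after the data were seen, Meg3 differed by 0.54 ± 0.50 on the log2 scale between labels (limma-voom, adjusted p = 0.964) and by 0.22 ± 0.51 between replicate sets (limma-voom, adjusted p = 0.755).

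Rian, the next maternal noncoding RNA of the Meg3 domain, was at 0.316 to 0.879 FPKM and exceeded Meg3 in every library, with a ratio of Meg3 to Rian of 0.262 to 0.464. The log2 ratio differed by 0.01 between labels (exact two-sided permutation test over 70 splits, p = 0.943, adjusted over 3 ratios 0.943; n = 4 per group). Mirg, the third of these RNAs, reached 0.121 FPKM, and the paternal genes Dlk1 and Rtl1 held at most 7 and 8 reads. Dio3, at the far end of the domain, was listed at 0 in every library, and Wdr25 was the only tested neighbour, at 0.843 to 1.24 FPKM.

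H19 (ENSMUSG00000000031; chromosome 7, 142575529 to 142578143, minus strand) was at 0.105, 0.0489, 0 and 0.0157 FPKM in the wild-type-labelled libraries, which is 7, 3, 0 and 1 reads. In the knockout-labelled libraries it was at 0, 0.0361, 0 and 0 FPKM, with 3 reads in the second. A library with 0 reads allows up to 3 reads, or 0.0428 to 0.0519 FPKM in the 4 libraries at 0. This limit covers counting error only. Both groups held libraries at 0, and H19 stayed out of the main test. Without an expression filter, H19 did not pass between labels (limma, difference -0.05 on the log2(FPKM + 1) scale, adjusted p = 0.903). Its paternally expressed neighbour Igf2 held at most 2 reads in any library, and the ratio of H19 to Igf2 was not computed. At the edge of the domain, Ctsd, a lysosomal protease, was at 206.6 to 261.6 FPKM, and Mrpl23 was at 0.758 to 1.63 FPKM. Both were lower in replicates 3 and 4, by -0.23 and -0.33 on the log2(FPKM + 1) scale (limma, adjusted p = 0.00872 and 0.0240).

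Kcnq1ot1 (ENSMUSG00000101609; chromosome 7, 143203458 to 143296549, minus strand) is annotated as a single exon of 93092 bases. It was at 0.152, 0.0814, 0.114 and 0.332 FPKM in the wild-type-labelled libraries and at 0.118, 0.169, 0.366 and 0.294 FPKM in the knockout-labelled ones. Because of its length these low values rest on 189 to 808 reads. The libraries of replicates 3 and 4 were the higher ones except the third wild-type-labelled library, the same exception as for Malat1 and Neat1. On recovered reads the difference between replicate sets was 1.01 ± 0.35 and did not pass (limma-voom, adjusted p = 0.0504), and that between labels was 0.58 ± 0.47 (limma-voom, adjusted p = 0.964). Kcnq1ot1 runs antisense through Kcnq1, sharing 121 exon bases with it and otherwise running over its introns, and reads from unspliced Kcnq1 RNA cannot be told apart from it without strand.

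The genes of the Kcnq1 domain did not move as a group. Between replicate sets, 1 of 7 tested genes passed in the higher and 4 in the lower direction, against 19.8% and 25.8% of all tested genes. Cdkn1c ran from 2.36 to 3.27 FPKM in replicates 1 and 2 but from 7.54 to 9.58 FPKM in replicates 3 and 4 (difference 1.38; limma, adjusted p = 2.5e-04), without overlap. Osbpl5, a lipid transfer protein, Cd81, a tetraspanin, Cars, a tRNA synthetase, and Nap1l4, a histone chaperone, were lower by -0.72, -0.66, -0.48 and -0.21. Kcnq1, the potassium channel gene itself, was at 1.04 to 2.05 FPKM and did not pass, nor did Tssc4, at 27.4 to 46.6 FPKM. The ratio of Kcnq1ot1 to Cdkn1c ran from 0.0132 to 0.0683, and its log2 value differed by 0.36 between labels (exact two-sided permutation test over 70 splits, p = 0.6, adjusted over 3 ratios 0.9; n = 4 per group). Phlda2, a placental growth inhibitor, was at 0.491 to 1.5 FPKM, and Slc22a18, Ascl2, Tspan32 and Trpm5 did not reach 1 FPKM in 4 libraries.

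For Malat1, Neat1 and Snhg1, which spanned more than 1 on the log2(FPKM + 1) scale over the 8 libraries, the closest patterns were sought. Likeness was measured as the root mean square difference of centred log2(FPKM + 1) over the 8 libraries. The candidates were 4669 or 4670 genes with a mean of at least 10 FPKM and no provisional symbol. That rule left out many of the highest long noncoding RNA genes, so protein-coding neighbours are no finding about noncoding ones. P4ha1, a collagen prolyl hydroxylase, was closest to Malat1 at 0.258, followed by Slc19a2, a thiamine transporter, at 0.263. Leng8 was closest to Neat1 at 0.166, followed by Zfp36l2, a protein that promotes decay of AU-rich messages, at 0.167. Rhbdf2, a rhomboid-like regulator of protease transport, and Zc3h4, a nuclear termination factor, were closest to Snhg1 at 0.115 and 0.116. These genes share libraries, depth and the split of replicates with the noncoding RNAs, and the distances are a description.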

How the data were processed

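Per the labels' protocols, column-purified RNA of the cultured endothelial cells went into NEBNext Ultra libraries. Per the submitters' processing notes, HISAT2 2.0.5 was the aligner. Not given in the sources used here are the counting step, its build, annotation and strand setting. The authors deposited FPKM, in 1 table for each library. Groups and replicate numbers came from the sample titles.

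Symbols were found for 54409 of 54532 identifiers. FPKM multiplied by the GENCODE M21 exon length was, within 0.01, a whole number of steps of 1 size for 96.5% to 96.8% of each library's values above 0. The step size gave the depth of 23491645 to 33813070 and the recovered reads. Coordinates are those of GENCODE M21 on GRCm38. Of the 9 genes, 7 matched the RefSeq promoter table.

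FPKM is no count, so limma 3.58.1 in R 4.3.3 was run on log2(FPKM + 1), with robust moderation and an intensity trend, for the 11864 genes that reached 1 FPKM in 4 or more libraries. This scale understates the change of low genes. Calls were made at a Benjamini-Hochberg adjusted p of 0.05 over all 11864 genes. Fits were made for genotype, for genotype with the replicate set as a term, for the replicate set with genotype as a term, and for their interaction. On simulated data for the same 11864 genes, changes were planted only in some genes with a mean log2(FPKM + 1) above 2. The genotype fit recovered 40.3%, 67.2% and 95.5% of those changed by 0.5, 1 and 2 on the log2 scale. The simulated noise was independent between libraries, without an interaction of genotype and replicate set. These shares need not hold for a gene as variable as Malat1. Ratios were tested by exact permutation over 70 splits.

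Deviations from the group means correlated across genes between libraries of equal replicate number, at 0.41, 0.75, 0.40 and 0.52. All were above 0.1. The group means leave the split between replicate sets in these deviations, so the correlations cannot show whether libraries of equal number were paired. The sources do not state a paired design, and the main genotype comparison was left unpaired. Blocking on the replicate number was tried only as an alternative, and its outcome is given below.

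The 9 genes, the lists and the replicate split were chosen with earlier results of these data known. Named were all 9 genes, up to 4 called genes with the largest differences of each list, the measured genes of the domains and of the snoRNA hosts, with those under the filter partly given by count or left out, and the 2 closest patterns for genes spanning more than 1 on the log2(FPKM + 1) scale. The alternatives were another pseudocount (0.1), no filter, a filter at 5, quantile normalization, median centring, rescaling without mitochondrial genes and the 9 genes, no trend, limma-voom on recovered reads, the replicate block and leaving out each library. Python 3.11.15, pandas 2.3.3, numpy 2.4.6 and matplotlib 3.10.9 were used for the other steps.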

Additional observations from a re-analysis of the deposited data

Results flagged for a closer look

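The genotype difference of Tug1 pointed in opposite directions in the replicate sets, with an interaction of -0.71 on the log2(FPKM + 1) scale (limma, unadjusted p = 0.00255, adjusted p = 0.394), and all 4 knockout-labelled libraries lay outside the range of the wild-type-labelled libraries of their own set. The same was seen for Gas5 with the signs turned around, at 0.49 (limma, unadjusted p = 0.00635, adjusted p = 0.468). Neither passed adjustment over all genes, and 4.3% of the tested genes showed such a reversal without overlap. H19 in the second knockout-labelled library was flagged at 0.0361 FPKM, which rests on 3 reads, with the other 3 libraries of its group at 0. With those at 0, any value above 0 would have been flagged, so the flag says nothing about this library. It was the 1 flag among 18 groups examined for 9 genes. The chance rate of about 1 in 20 groups does not hold for tied values of 0.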

How the results depend on the processing

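Of 343 recomputed values, 310 kept their direction and their side of the threshold. The count of 0 tested genes called between genotype labels held under every alternative run, as did that with the replicate set as a term and that of the interaction. The count of 3 genes called between replicate sets ran from 1 to 4 when each library was left out and fell to 0 of 9 without the filter, where 33196 genes were tested. The replicate block changed no call of the 6 genes: Neat1 had an adjusted p of 0.303 in limma with the block, against 0.925 without it.

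Over left-out libraries the label difference of Malat1 ran from 0.03 to 0.55, that of Neat1 from 0.26 to 0.63, that of Snhg12 from 0.12 to 0.39 and the Neat1 to Malat1 log2 ratio from 0.02 to 0.39, with Malat1 down to 0.0004 with the set term. Differences that lay close to 0 changed sign. Left-out libraries moved Tug1 between -0.16 and 0.0948, Snhg1 between -0.24 and 0.16 and Gas5 between -0.12 and 0.0343, and with the replicate set as a term between -0.15 and 0.0742, -0.18 and 0.13, and -0.12 and 0.0341. With limma-voom Tug1 was at 0.0019 (0.0019 with the added minimum of 10 reads), and Gas5 was at 0.0013 (0.0010), or 0.0064 (0.0064) with the set term. The Meg3 to Rian log2 ratio was -0.0659 with a pseudocount of 0.1, -0.27 within replicates 3 and 4, and -0.16 to 0.18 over left-out libraries. Kcnq1ot1 to Cdkn1c ran from -0.0814 to 0.66. The cause was not tested. Depth limits H19, with 0 to 7 reads. Meg3 and Kcnq1ot1 lay under the FPKM filter and were tested only without it or on recovered reads. The number of all genes called with the set term was 75, against 192 in limma-voom, 193 with the filter at 5, 47 with rescaling, 1 without trend, 0 without a filter and 0 to 322 over left-out libraries.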

Other observations

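Imprinted genes outside the domains of H19, Meg3 and Kcnq1ot1 showed no common direction between replicate sets. Of 20 tested, 5 passed in the higher and 5 in the lower direction in limma. These counts lay near the background, 19.8% and 25.8% of all 11864 tested genes. Zdbf2 and Peg10, both paternally expressed, were higher in replicates 3 and 4 by 1.28 and 1.22 on the log2(FPKM + 1) scale, and Nnat, also paternally expressed, by 0.47, whereas Grb10, a growth-inhibiting adaptor, was lower by -0.86. None of the 20 passed between genotype labels.

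Several of the highest long noncoding RNA genes by mean FPKM were provisional entries. Gm26917 at 249.9 FPKM and Gm567 at 143.2 FPKM ranked behind Malat1. Of the 12841 genes of the long noncoding annotation, 612 averaged at least 1 FPKM and 4834 were listed at 0 in all 8 libraries.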
